A study of Mus musculus with 21 samples.

Results

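The genes described here are 9 transcription factors of the pancreatic progenitor: Pdx1, Sox9, Nkx6-1, Onecut1, Prox1, Glis3, Gata6, Hnf4a and Mnx1. They form a list chosen by gene name, with earlier results of these data known, and were found through the platform annotation. Each had exactly 1 probe set with that single symbol, so all 9 are among the 19296 genes measured. Expression was measured on Affymetrix arrays in cells sorted from mouse embryonic pancreas by FVF, a fusion of the endodermal factor Foxa2 with the fluorescent protein Venus. FVF+ cells were those sorted as positive for the fusion, and FVF- cells those sorted as negative for it. Embryonic days E12.5 to E15.5 were sampled daily, with 3, 2, 3 and 3 FVF+ arrays and 2, 2, 3 and 3 FVF- arrays in that order of days, 21 in total. Both sorts came from embryos of a mixed C57-Bl6, SV129 and CD1 background, and no other treatment or allele is given. Whether arrays of a group came from separate embryos, litters or sorts is not stated, so the p-values speak only for the spread among these particular samples. Precision is limited by how few arrays each group has.

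In the early pancreas, Pdx1, Sox9, Nkx6-1 and their partners are found together in multipotent epithelial cells. As the epithelium branches, tip cells turn towards the acinar lineage and keep Ptf1a, while trunk cells keep Sox9, Nkx6-1 and Onecut1 and give rise to duct cells and, through Neurog3, to endocrine cells. Several of the factors are later restricted to single lineages, Pdx1 and Nkx6-1 mainly to beta cells and Sox9 and Onecut1 mainly to ducts. Values are log2 robust multi-array average (RMA) signals, on which a difference of 1 is a 2-fold difference. Levels are compared between samples for 1 gene or 1 list of genes, and never between genes or lists, because probe sets differ in their response.

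The sorts carried the markers of their labels. The 6 epithelial markers (Epcam, Cdh1, Krt8, Krt18, Cldn6 and Esrp1) averaged 12.79 to 13.08 log2 units on the FVF+ arrays, against 8.28 to 10.10 on the FVF- arrays. Foxa2, whose fusion defined the sort, was higher in FVF+ by 2.91 ± 0.10 (SE, adjusted p = 1.9e-14). All 8 mesenchymal markers were lower in FVF+. Among markers of neighbouring organs, Barx1, Tlx1 and Nkx2-5 had FVF- medians of 12.1, 10.82 and 10.33, against 9.12, 7.93 and 9.19 in FVF+. Alb and Afp had medians of 8.63 and 10.0 in FVF+, against 6.68 and 7.23 in FVF-. Cdx2 had 7.1 in both sorts, and Sox2 6.39 in FVF+ and 6.8 in FVF-. Whether cells of neighbouring organs were in the sorts was not tested. Several arrays stood apart from their groups in a marker list. On FVF- E14.5 replicate 3 the 9 factors averaged 9.83 log2 units, against 8.81 and 8.65 on replicates 1 and 2, and the epithelial markers averaged 10.10, against 9.47 and 8.48. On FVF+ E12.5 replicate 1 the 8 mesenchymal markers averaged 8.96, against 7.98 and 7.81 on replicates 2 and 3. For the 5 endothelial markers, FVF+ E13.5 replicate 2 averaged 9.15, against 7.67 on replicate 1, and FVF+ E14.5 replicate 2 averaged 9.13, against 8.24 and 8.36. Results that rest on FVF- E14.5 replicate 3 are given with and without it. Of the E13.5 arrays, both FVF+ ones and FVF- replicate 2 have letter codes in their descriptions and all other arrays have number codes, and what the codes mark is not stated. In bulk samples, fewer cells of a type and less RNA per cell cannot be told apart.

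The first comparison asked which sort held the progenitor factors. All 9 were higher in FVF+ as the mean over the 4 days, with log2 differences from 0.51 to 4.30 and a median of 3.43, against a median of 0.03 over all genes. Of all genes, 55.7% were called for this difference (limma adjusted p under 0.05), and 30.5% were called higher in FVF+. For 8 of the 9, every FVF+ array was above every FVF- array on any day, which held for 7.81% of all genes. Gata6 was the exception.

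**Figure D1:**
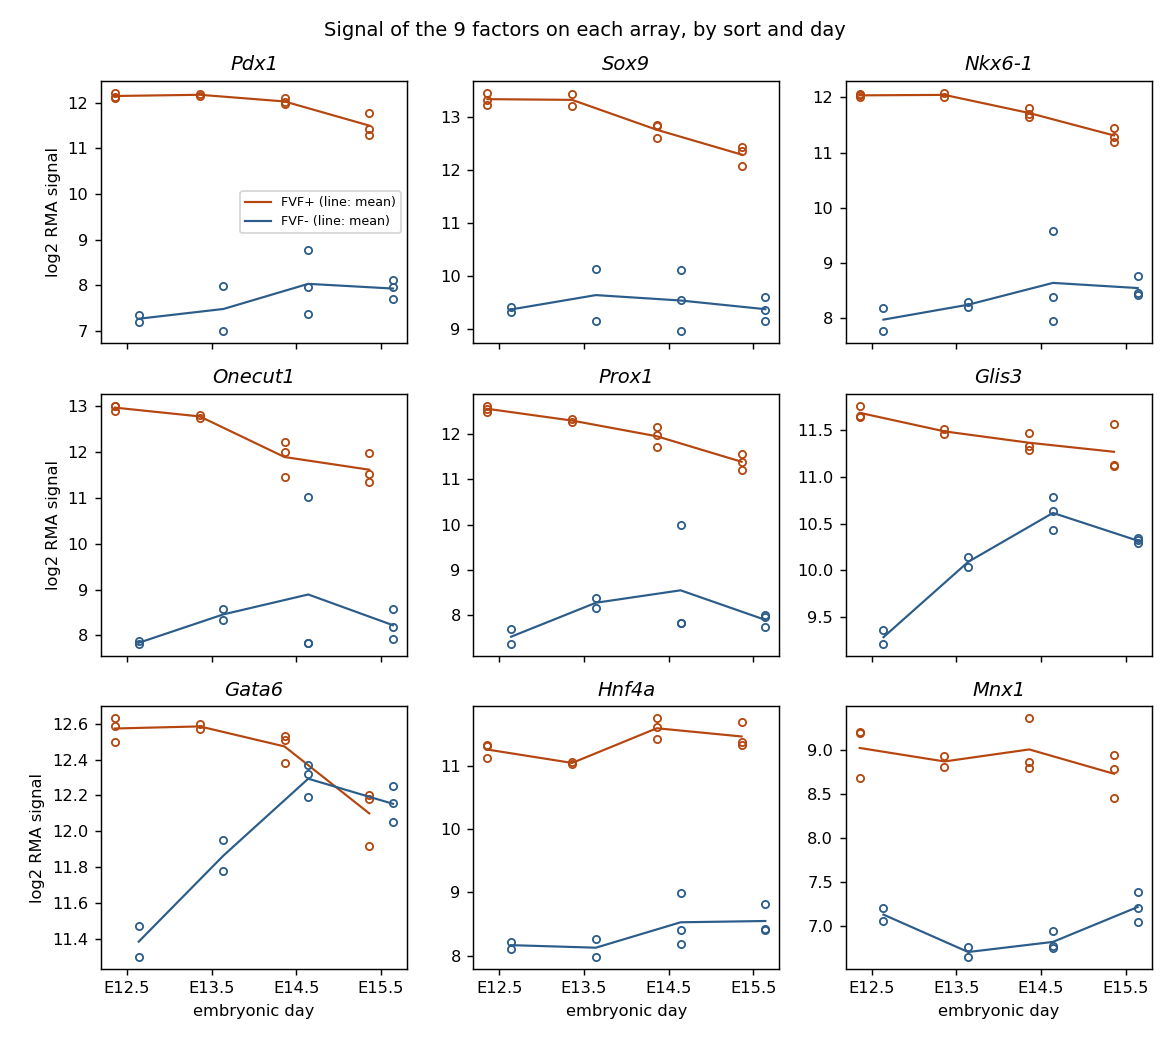
Log2 RMA signal of each factor (vertical axis, scaled per gene) by embryonic day (horizontal axis). Circles are arrays, lines join group means, FVF+ in orange and FVF- in blue. The sorts lie apart in 8 panels, and in the Gata6 panel they lie close at E14.5 and overlap at E15.5.

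Pdx1, the homeodomain factor required for outgrowth of the pancreatic buds, had the largest mean sort difference of the 9. On the FVF+ arrays it read 12.22, 12.10 and 12.14 on E12.5, 12.16 and 12.20 on E13.5, 12.02, 12.11 and 11.97 on E14.5, and 11.43, 11.78 and 11.30 on E15.5. On the FVF- arrays it read 7.18 and 7.34 on E12.5, 6.98 and 7.97 on E13.5, 7.95, 7.37 and 8.76 on E14.5, and 7.69, 8.12 and 7.96 on E15.5. The lowest FVF+ array, at E15.5, was thus still above the highest FVF- array, E14.5 replicate 3. The mean sort difference was 4.30 ± 0.14 (SE, adjusted p = 1.7e-14), or 19.6-fold. It was 4.89 on E12.5 and 3.58 on E15.5.

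Sox9 is the HMG-box factor that maintains the progenitor pool and later marks ducts. Its FVF+ arrays read 13.23, 13.32 and 13.45 on E12.5, 13.21 and 13.43 on E13.5, 12.82, 12.60 and 12.85 on E14.5, and 12.44, 12.07 and 12.36 on E15.5. Its FVF- arrays read 9.43 and 9.32, then 9.15 and 10.14, then 9.55, 8.96 and 10.12, and 9.61, 9.37 and 9.16 over the same days. The FVF- arrays had no order by day, and the 2 highest were E13.5 replicate 2 and E14.5 replicate 3. The mean sort difference was 3.44 ± 0.13 (adjusted p = 8.5e-14), or 10.8-fold.

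Nkx6-1, a homeodomain factor of trunk progenitors and later of beta cells, read alike in FVF+ at E12.5 and E13.5. Its arrays read 12.00, 12.05 and 12.06 on E12.5, 12.01 and 12.08 on E13.5, 11.64, 11.81 and 11.70 on E14.5, and 11.45, 11.29 and 11.19 on E15.5. In FVF- it read 7.76 and 8.19, then 8.20 and 8.29, then 8.39, 7.95 and 9.58, and 8.45, 8.77 and 8.42. Apart from the 9.58 of E14.5 replicate 3, no FVF- array passed 8.77. The mean sort difference was 3.43 ± 0.14 (adjusted p = 2e-13), or 10.7-fold.

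Onecut1, also known as Hnf6, is a cut-homeodomain factor that acts upstream of Pdx1 and Neurog3 and stays on in ducts. FVF+ arrays read 13.01, 13.00 and 12.89 on E12.5, 12.75 and 12.80 on E13.5, 12.00, 11.46 and 12.21 on E14.5, and 11.97, 11.34 and 11.53 on E15.5. FVF- arrays read 7.81 and 7.87, then 8.58 and 8.34, then 7.83, 7.83 and 11.02, and 7.92, 8.57 and 8.18. FVF- E14.5 replicate 3 stood more than 2 log2 units above every other FVF- array. The sort difference at E14.5 was 3.00 ± 0.54 with this array and 4.06 ± 0.21 without it. Over the 4 days it was 3.96 ± 0.29 (adjusted p = 9.4e-10) and it was widest at E12.5, at 5.13.

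Prox1, a homeodomain factor of pancreas and liver progenitors that also specifies lymphatic endothelium, had the same outlying array. In FVF+ it read 12.49, 12.63 and 12.56 on E12.5, 12.33 and 12.27 on E13.5, 11.98, 11.72 and 12.16 on E14.5, and 11.57, 11.21 and 11.39 on E15.5. In FVF- it read 7.69 and 7.36, then 8.39 and 8.16, then 7.83, 7.82 and 10.00, and 7.73, 7.95 and 8.01. At E14.5 the sort difference was 3.40 with FVF- replicate 3 and 4.13 without it. Its mean over days was 3.99 ± 0.20 (adjusted p = 3.2e-12), or 15.9-fold.

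The mean sort differences of the remaining 4 factors ran from 0.51 to 3.00. Hnf4a, a nuclear receptor of liver, gut and pancreas, was higher in FVF+ by 3.00 ± 0.09 (adjusted p = 7e-15), and Mnx1, a homeodomain factor required for the dorsal bud and later for beta cells, by 1.94 ± 0.09 (adjusted p = 7e-13). Mnx1 spanned 8.46 to 9.36 on the 11 FVF+ arrays and 6.65 to 7.39 on the 10 FVF- arrays. Glis3, a zinc-finger factor of duct and endocrine precursors, was higher by 1.37 ± 0.06 (adjusted p = 5e-13). Gata6, a zinc-finger factor that acts with Gata4 in forming the pancreas, was higher by 0.51 ± 0.05 (adjusted p = 5.2e-08), or 1.42-fold.

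Taken day by day, all 9 were called higher in FVF+ at E12.5 and at E13.5, where 17.2% and 15.8% of all genes were. At E14.5 and E15.5 the count was 8 of 9, where 23.1% and 24.4% of all genes were called higher. Gata6 was the factor not called, at 0.18 ± 0.09 (adjusted p = 0.13) and -0.05 ± 0.09 (adjusted p = 0.67, 95% interval -0.25 to 0.14). The median difference of the 9 was 3.96 on E12.5, 3.67 on E13.5, 3.07 on E14.5 and 2.91 on E15.5. With all arrays, the sort differences of Hnf4a lay between 2.92 and 3.09 over the 4 days. Without FVF- E14.5 replicate 3, each of the 9 had a larger difference at E14.5. It was then 4.37 for Pdx1, 3.50 for Sox9, 3.30 for Hnf4a and 0.19 for Gata6. The E14.5 median and the narrow range of Hnf4a thus rest in part on that array.

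**Figure D2:**
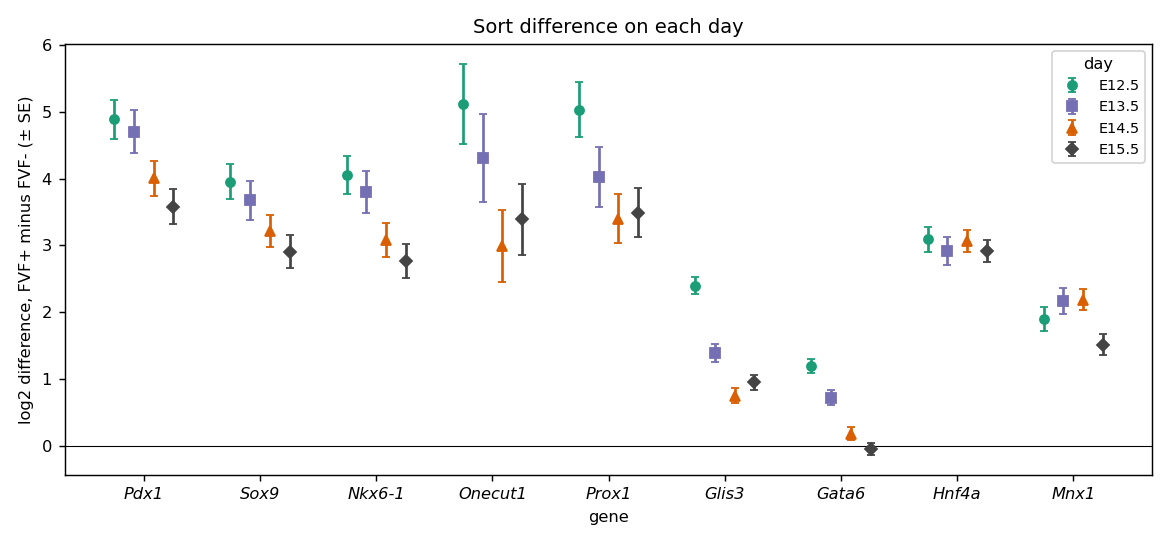
FVF+ minus FVF- in log2 units (vertical axis) for each factor (horizontal axis) on each day, with bars of 1 SE from limma. The Gata6 points lie at 1.19, 0.72, 0.18 and -0.05, and those of Hnf4a between 2.92 and 3.09.

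The next comparison followed the factors within FVF+ cells over the 4 days. From E12.5 to E15.5, 7 of the 9 fell and 0 rose, with a median of -0.65 for the 9 against 0.09 for all genes. Of all genes, 46.9% were called and 19.3% were called lower. Onecut1 averaged 11.61 ± 0.32 on E15.5 and 12.97 ± 0.07 on E12.5 (SD, n = 3 each), a change of -1.35 ± 0.54 (SE, adjusted p = 0.047), or 2.56-fold lower. Prox1 averaged 11.39 ± 0.18 on E15.5 and 12.56 ± 0.07 on E12.5 and fell by 1.17 ± 0.37 (adjusted p = 0.015). Sox9 averaged 12.29 ± 0.19 on E15.5 and 13.33 ± 0.11 on E12.5 and fell by 1.04 ± 0.24 (adjusted p = 0.0022).

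Smaller falls were seen for the other 4. Nkx6-1 fell by 0.73 ± 0.26 (adjusted p = 0.027), Pdx1 by 0.65 ± 0.26 (adjusted p = 0.0495), Gata6 by 0.47 ± 0.09 (adjusted p = 0.00057) and Glis3 by 0.42 ± 0.11 (adjusted p = 0.0056). For each of these 7, all E15.5 FVF+ arrays lay below all E12.5 FVF+ arrays, as they did for 22.6% of all genes. Over those days, of 6 epithelial markers in FVF+ Krt18 rose and 0 fell, and of 8 mesenchymal markers 3 rose, or 7 without FVF+ E12.5 replicate 1. Their part in the falls was not tested. Hnf4a changed by 0.21 ± 0.17 (adjusted p = 0.32) and Mnx1 by -0.29 ± 0.16 (adjusted p = 0.14), and neither was called.

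The calls for Onecut1, Pdx1 and Nkx6-1 lay near the threshold in the fit that shares 1 error over both sorts. Leaving out 1 array at a time, Onecut1 was called in 4 of 21 fits, Pdx1 in 5, Nkx6-1 in 16, and Sox9, Prox1, Glis3 and Gata6 in all 21. Without FVF- E14.5 replicate 3, which is no FVF+ array but enters the shared error, the SE of Onecut1 was 0.18 (adjusted p = 3.2e-05) and that of Prox1 0.12 (adjusted p = 2.5e-06). Under quantile normalization Pdx1 (adjusted p = 0.061) and Onecut1 (0.071) were not called. Under cyclic loess Pdx1, Nkx6-1, Onecut1 and Glis3 were not called (adjusted p from 0.070 to 0.11), while Mnx1 was (-0.48, adjusted p = 0.028). Fitted on the 11 FVF+ arrays alone, the same 7 factors were called, with Onecut1 at -1.35 ± 0.19 (adjusted p = 0.00023) and Pdx1 at -0.65 ± 0.11 (adjusted p = 0.00089).

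The change was then taken in daily steps. Between E12.5 and E13.5 0 of the 9 were called, where 0.00518% of all genes were. Between E13.5 and E14.5 again 0 were called (8.85% of all genes), while the FVF+ arrays alone gave 3: Onecut1 fell by 0.89 ± 0.21 (adjusted p = 0.022), Sox9 fell by 0.56 ± 0.13 (adjusted p = 0.021), and Hnf4a rose by 0.55 ± 0.13 (adjusted p = 0.023). From E14.5 to E15.5 Gata6 alone was called in the fit of both sorts, at -0.37 ± 0.09 (adjusted p = 0.0086), where 25.6% of all genes were called. The FVF+ arrays alone gave 5 falls over that day. Those were Prox1 at -0.56 ± 0.12, Pdx1 at -0.53 ± 0.11, Sox9 at -0.47 ± 0.12, Nkx6-1 at -0.41 ± 0.09 and Gata6 at -0.37 ± 0.09, with adjusted p from 0.0087 to 0.016. Over that same day Onecut1 changed by -0.28 ± 0.19 (adjusted p = 0.27). Whether the timing differs between factors was not tested.

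A test for any change over the 4 days in FVF+ called 3 of the 9 (Sox9, Glis3 and Gata6), where 45.0% of all genes were called. It called 8, all but Mnx1, on the FVF+ arrays alone, and the same number in the fit of both sorts without FVF- E14.5 replicate 3.

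**Figure D3:**
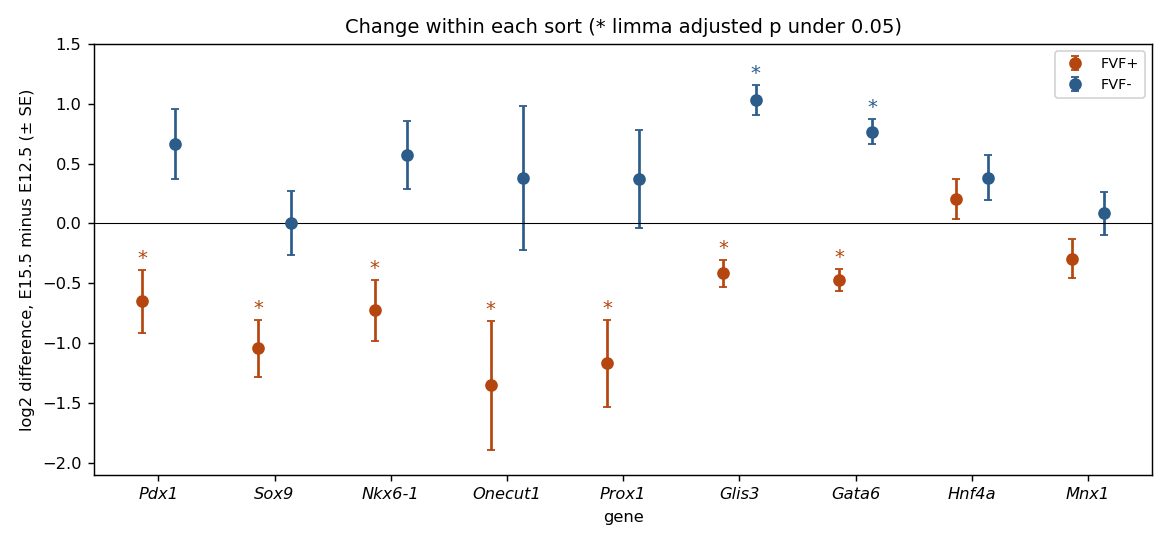
E15.5 minus E12.5 in log2 units (vertical axis) for each factor (horizontal axis) within FVF+ (orange, left of each pair) and FVF- (blue), with bars of 1 SE. Asterisks mark changes called by limma: 7 falls in FVF+, and Glis3 and Gata6 in FVF-.

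Hnf4a was a factor not called over the whole course. It read 11.33, 11.13 and 11.31 on E12.5, 11.03 and 11.06 on E13.5, 11.61, 11.75 and 11.42 on E14.5, and 11.37, 11.69 and 11.33 on E15.5 in FVF+. All E14.5 arrays were above all arrays of the earlier days, and both E13.5 arrays were the lowest. In FVF- it read 8.11 and 8.22, then 7.98 and 8.27, then 8.40, 8.19 and 8.99, and 8.40, 8.82 and 8.42. Mnx1 read 9.20, 8.68 and 9.19 on E12.5 and 8.79, 8.94 and 8.46 on E15.5 in FVF+, and those days overlapped.

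RefSeq promoter windows (GRCm38.p6, the 250 bases before a gene's start) were used for 7 of the 9 factors, with 2 starts each for Prox1 and Hnf4a. They are shown for Onecut1 and Pdx1, which fell in FVF+, and for both starts of Hnf4a, whose change was not called. The windows were searched on both strands for 7 short motifs linked to factors of this network: ATCAAT (Onecut), GTTAAT (Hnf1), TGTTTAC (Foxa), AGATAA (of the Gata factors), TAATTA (homeodomain), AACAAT (Sox) and CAAAGTCCA (Hnf4). Capitals mark the matches.
Onecut1, chr9:74861671-74861920, plus strand: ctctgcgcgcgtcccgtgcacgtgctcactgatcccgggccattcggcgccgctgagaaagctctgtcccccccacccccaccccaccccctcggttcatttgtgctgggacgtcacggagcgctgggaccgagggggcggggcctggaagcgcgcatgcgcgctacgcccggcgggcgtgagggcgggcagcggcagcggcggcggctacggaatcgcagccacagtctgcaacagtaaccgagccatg
Pdx1, chr5:147269847-147270096, plus strand: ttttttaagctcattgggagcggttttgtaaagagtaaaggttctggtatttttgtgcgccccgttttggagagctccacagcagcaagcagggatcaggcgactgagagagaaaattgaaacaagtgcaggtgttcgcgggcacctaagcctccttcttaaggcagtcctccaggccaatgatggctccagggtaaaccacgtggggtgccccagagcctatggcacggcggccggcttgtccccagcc
Hnf4a start 1, chr2:163506607-163506856, plus strand: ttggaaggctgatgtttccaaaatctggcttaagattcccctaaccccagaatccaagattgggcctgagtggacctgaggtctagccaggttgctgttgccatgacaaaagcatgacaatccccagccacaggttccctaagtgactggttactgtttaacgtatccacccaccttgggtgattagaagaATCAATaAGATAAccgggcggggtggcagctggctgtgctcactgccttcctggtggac
Hnf4a start 2, chr2:163546905-163547154, plus strand: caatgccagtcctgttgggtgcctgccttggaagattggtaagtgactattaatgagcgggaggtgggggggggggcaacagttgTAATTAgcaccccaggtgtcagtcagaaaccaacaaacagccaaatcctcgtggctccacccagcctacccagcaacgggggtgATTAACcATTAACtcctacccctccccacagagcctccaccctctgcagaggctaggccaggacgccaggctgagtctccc

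Among the windows of the 7 factors, only those of Hnf4a held a match. No window of Sox9 or Gata6 was searched, so nothing is said about theirs. Start 1 held ATCAAT at -59 to -54 and AGATAA at -52 to -47, 1 base apart, counted back from the start. Start 2 held GTTAAT on the minus strand at -81 to -76 and at -74 to -69, written ATTAAC on the strand shown, and the palindrome TAATTA at -165 to -160. Of the 32851 promoter windows of that length in the reference, 6.72% held ATCAAT, 9.99% AGATAA, 6.43% GTTAAT and 4.84% TAATTA. Base composition varied among the windows. Those of Hnf4a were 51.2% and 57.6% G or C with 3 and 4 CpG pairs. Onecut1 had 71.6% and 31 pairs, Pdx1 had 54.8% and 10 pairs, and the median of all windows was 52.4% and 6 pairs. The other windows of the factors ran from 56.0% (Prox1 start 1) to 75.6% (Glis3). In G or C, Pdx1 and Prox1 start 1 thus lay between the Hnf4a windows. A match is a description of these letters, and binding was not measured.

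In FVF- cells Gata6 and Glis3 moved the other way. They were the 2 factors of 9 called between E12.5 and E15.5, both higher at E15.5, where 20.4% of all genes were called and 10.7% were called higher. Gata6 in FVF- read 11.47 and 11.30 on E12.5, 11.95 and 11.78 on E13.5, 12.19, 12.37 and 12.32 on E14.5, and 12.16, 12.25 and 12.05 on E15.5. In FVF+ it averaged 12.57 ± 0.07 (SD, n = 3) on E12.5, then read 12.57 and 12.60, then 12.53, 12.38 and 12.51, and 12.18, 12.20 and 11.92. Every FVF+ array up to E14.5 was above every FVF- array, and at E15.5 the sorts overlapped.

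Gata6 rose in FVF- by 0.77 ± 0.10 (SE, adjusted p = 5e-05) and fell in FVF+ by 0.47 ± 0.09. In order of group means it ran from FVF+ E13.5 (12.59 ± 0.02, SD) and FVF+ E12.5 (12.57 ± 0.07) through FVF+ E14.5 (12.47 ± 0.08), FVF- E14.5 (12.29 ± 0.09), FVF- E15.5 (12.15 ± 0.10), FVF+ E15.5 (12.10 ± 0.16) and FVF- E13.5 (11.87 ± 0.12) down to FVF- E12.5 (11.38 ± 0.12). Arrays of neighbouring groups in that order overlapped, except between FVF+ E14.5 and FVF- E14.5 and between FVF- E13.5 and FVF- E12.5.

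Glis3 in FVF- read 9.36 and 9.21 on E12.5, 10.04 and 10.14 on E13.5, 10.43, 10.63 and 10.78 on E14.5, and 10.34, 10.32 and 10.29 on E15.5. In FVF+ it read 11.64, 11.76 and 11.65, then 11.46 and 11.51, then 11.29, 11.47 and 11.33, and 11.56, 11.11 and 11.13. The FVF- arrays of the 4 days did not overlap, and E14.5 was the highest day. Glis3 rose in FVF- by 1.03 ± 0.12 between E12.5 and E15.5 (adjusted p = 1.8e-05), while its sort difference was 2.40 on E12.5, 1.40 on E13.5, 0.75 on E14.5 and 0.95 on E15.5.

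A test for any change over the 4 days called the same 2, where 27.4% of all genes were called. Without E14.5 replicate 3 it also called Nkx6-1 (adjusted p = 0.030) and Prox1 (adjusted p = 0.011), and on the FVF- arrays alone it called Mnx1 beside the 2 (adjusted p = 0.034). The other 7 factors were not called in FVF-. Pdx1 changed by 0.66 ± 0.29 (adjusted p = 0.13) and Nkx6-1 by 0.57 (adjusted p = 0.18), and without E14.5 replicate 3 both were called, at the same differences (adjusted p = 0.044 and 0.0085). Onecut1, Prox1 and Hnf4a changed by 0.37 to 0.38, Mnx1 by 0.09 and Sox9 by 0.01. For 7 of the 9, all but Sox9 and Mnx1, every E15.5 FVF- array was above both E12.5 arrays, as for 24.5% of all genes.

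Markers of several cell types moved over the same days in FVF-. Of the 6 epithelial markers, Cdh1 rose by 1.70 ± 0.38 (adjusted p = 0.0042), Krt8 by 1.41 ± 0.19 (adjusted p = 6.8e-05) and Krt18 by 0.75 ± 0.19 (adjusted p = 0.0095), and 3 were not called. Of 5 red blood cell markers 3 fell and 1 rose, with a median change of -1.99, and the embryonic globin gene Hbb-y fell by 2.86 ± 0.75 (adjusted p = 0.011). Their summed signal on FVF- arrays was 11.55, 12.99 and 12.43 log2 units at E15.5, against 14.53 and 14.66 at E12.5. Of 5 macrophage markers 3 rose, of 5 smooth muscle markers 3 and of 5 endothelial markers 2, and 0 fell in these lists. All 4 lymphatic endothelial markers measured rose, Lyve1 by 2.20 ± 0.29 (adjusted p = 4.3e-05). Of the 8 mesenchymal markers 3 rose and 1 fell, and Lum, a collagen-binding proteoglycan, rose by 3.63 ± 0.36 (adjusted p = 2.6e-06). Summed over each list, FVF- arrays spanned 11.27 to 12.85 log2 units for the epithelial markers, 11.13 to 12.92 for the lymphatic ones and 15.03 to 15.77 for the mesenchymal ones. On FVF+ arrays those sums spanned 15.62 to 15.85, 10.35 to 10.81 and 11.13 to 12.45. Such sums are not amounts of cell types and are not compared between lists. No marker can be read as absent on these arrays, which have no zero. The part of these cell types in the FVF- changes of Gata6, Glis3 and the other factors was not tested. Nor was their part in the interactions, which include those FVF- changes.

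**Figure D4:**
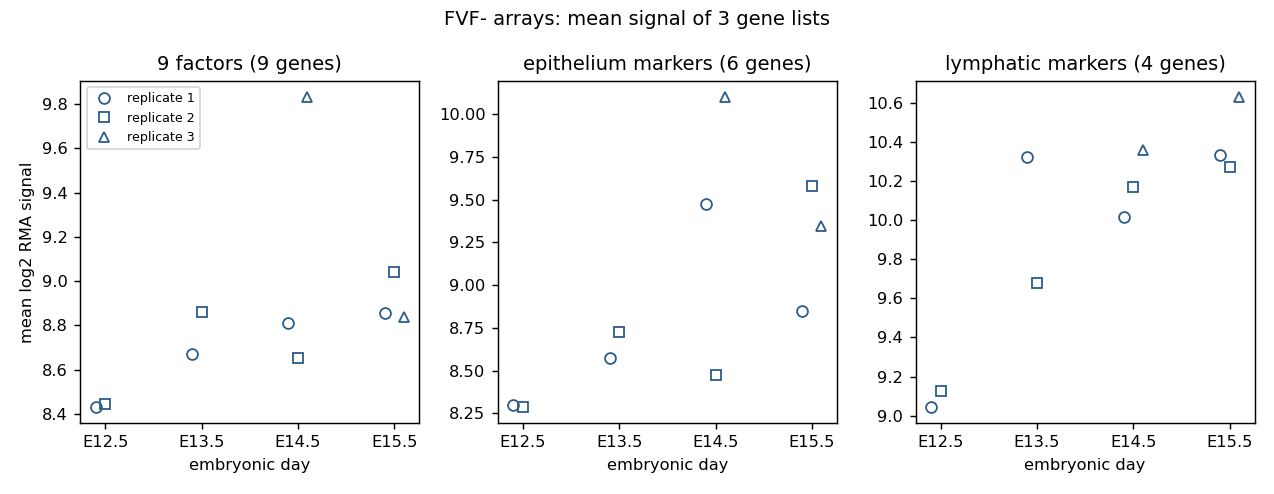
Mean log2 RMA signal (vertical axis) of the 9 factors, of 6 epithelial and of 4 lymphatic endothelial markers on each FVF- array by embryonic day (horizontal axis), with a symbol per replicate number. E14.5 replicate 3 is the highest array for the factors, at 9.83, and for the epithelial markers, at 10.10.

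Whether E15.5 minus E12.5 differed between the sorts was tested as an interaction. It was called for 5 of the 9, all with a lower change in FVF+ than in FVF-, where 19.6% of all genes were called and 8.83% were called lower. Between E13.5 and E14.5 the interaction was called for 0 of the 9 (2.75% of all genes). Over the whole course it was -1.45 ± 0.17 for Glis3 (adjusted p = 1.8e-05), -1.31 ± 0.39 for Pdx1 (adjusted p = 0.026), -1.30 ± 0.38 for Nkx6-1 (adjusted p = 0.025), -1.24 ± 0.14 for Gata6 (adjusted p = 1.3e-05) and -1.05 ± 0.36 for Sox9 (adjusted p = 0.049). Prox1 (-1.54 ± 0.55, adjusted p = 0.057) and Onecut1 (-1.74 ± 0.81, adjusted p = 0.14) had larger differences and larger errors and were not called. Without FVF- E14.5 replicate 3 they were, with the errors at 0.19 and 0.28 (adjusted p = 3.6e-05 and 0.00043). Hnf4a (-0.17, adjusted p = 0.66) and Mnx1 (-0.38, adjusted p = 0.28) were not called either way. Leaving out 1 array at a time, Glis3 and Gata6 were called in 21 of 21 fits, Nkx6-1 in 18, Pdx1 in 16 and Sox9 in 5. Under median centring, quantile normalization and cyclic loess the Sox9 interaction was not called (adjusted p from 0.052 to 0.079). Sox9 itself changed by 0.01 in FVF-.

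Over the 11 FVF+ arrays, Pearson's r between the 7 factors that fell ran from 0.528 (Pdx1 and Glis3) to 0.963. It was 0.963 for Sox9 and Prox1, 0.945 for Onecut1 and Prox1, 0.941 for Sox9 and Onecut1, and 0.939 for Sox9 and Nkx6-1. Pdx1 was closest to Gata6, at 0.933. The lower values included 0.608 for Glis3 and Gata6 and 0.639 for Pdx1 and Onecut1. For Hnf4a, r with the 7 ran from -0.774 with Onecut1 to -0.207 with Pdx1, and for Mnx1 from 0.104 with Onecut1 to 0.609 with Pdx1. These values describe 11 arrays that share the normalization and the course of days, and factors that all fall over those days have positive r for that alone.

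Over all genes except predicted ones, the 3 most like each factor on the same arrays were named by r. Predicted genes were those with symbols that start with Gm or LOC and a digit, or end in Rik. Nearest to Pdx1 were the kinase gene Abl1 (0.991), Wipf2 (0.991) and Map4 (0.986), and nearest to Sox9 were Phtf1, Zfp983 and Zdhhc15 (0.984 to 0.990). Sipa1l1, Fbxl20 and Pde9a followed Nkx6-1 (0.979 to 0.983), and Adamts1, Ccdc125 and Trps1 followed Onecut1 (0.987 to 0.990). For Prox1 they were Zfp318, Cdkl3 and Foxp1 (0.985 to 0.987), and for Glis3 Clmn (0.979), Aak1 (0.954) and Numb (0.952), the last an inhibitor of Notch signalling. Gata6 was nearest to Tab2, Wnk1 and Zbtb26 (0.974 to 0.978), Hnf4a to Cln6 (0.975), St14 (0.955) and H2-Ke6 (0.954), and Mnx1 to Zfp710 (0.936), Pacs2 (0.903) and Tle3 (0.891). Among the genes so ranked, the highest r of Mnx1 was thus the lowest of the 9. Because r was taken within FVF+, these genes need not share the sort difference of the factors. Their own mean sort differences ran from -1.51 (Trps1) to 3.86 (St14).

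The closest relatives of the factors did not all follow them. Of 12 paralogues, 4 rose and 3 fell in FVF+ over the whole course, with a median of 0.06. The shares of all genes were 27.6% called higher and 19.3% called lower. Onecut3, the relative of Onecut1, read 8.57, 8.57 and 8.71 on E15.5 and 10.87, 10.32 and 10.51 on E12.5. It fell by 1.95 ± 0.13 (adjusted p = 1.1e-08), of which 1.61 ± 0.15 came between E13.5 and E14.5 (adjusted p = 4.4e-06). Its E14.5 and E15.5 FVF+ arrays spanned 8.39 to 8.79, beside 8.12 to 8.51 for FVF- on all days. Onecut2 fell by 0.46 ± 0.10 (adjusted p = 0.001), so all 3 members of the family fell, although the call of Onecut1 was lost under quantile normalization and cyclic loess.

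The Gata family split. Gata4, which acts in tip cells and acinar cells, read 11.71, 12.37 and 11.89 on E15.5 and 11.33, 11.18 and 11.37 on E12.5 in FVF+. Its arrays of those days did not overlap, and it rose by 0.70 ± 0.15 (adjusted p = 0.0011) while Gata6 fell. In FVF- Gata4 rose by 0.61 ± 0.16 (adjusted p = 0.013), beside the 0.77 of Gata6, and its interaction was 0.09 (adjusted p = 0.81). Gata5 changed by 0.07 in FVF+ (adjusted p = 0.73). Among the other relatives, Hnf4g (0.46 ± 0.09, adjusted p = 0.0005), Nkx6-3 (0.45 ± 0.11, adjusted p = 0.0032) and Glis1 (0.36 ± 0.11, adjusted p = 0.013) rose. Over all days Nkx6-3 spanned 7.83 to 8.52 on the FVF+ arrays, overlapping its 7.78 to 8.31 on the FVF- arrays. Hnf4g spanned 6.54 to 7.19 on FVF+ arrays and 5.82 to 6.15 on FVF- arrays. Glis2 changed by -0.30 ± 0.09 (adjusted p = 0.0093) and was not called under quantile normalization (adjusted p = 0.056) or cyclic loess (0.10). Sox8, Sox10, Nkx6-2 and Prox2 were not called in FVF+, and Prox2 was called lower under cyclic loess (-0.18, adjusted p = 0.0499). Glis1 and the Sox9 relatives Sox8 and Sox10 were the 3 paralogues lower in FVF+ than in FVF-, by -0.34, -0.56 and -0.38 log2 units.

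**Figure D5:**
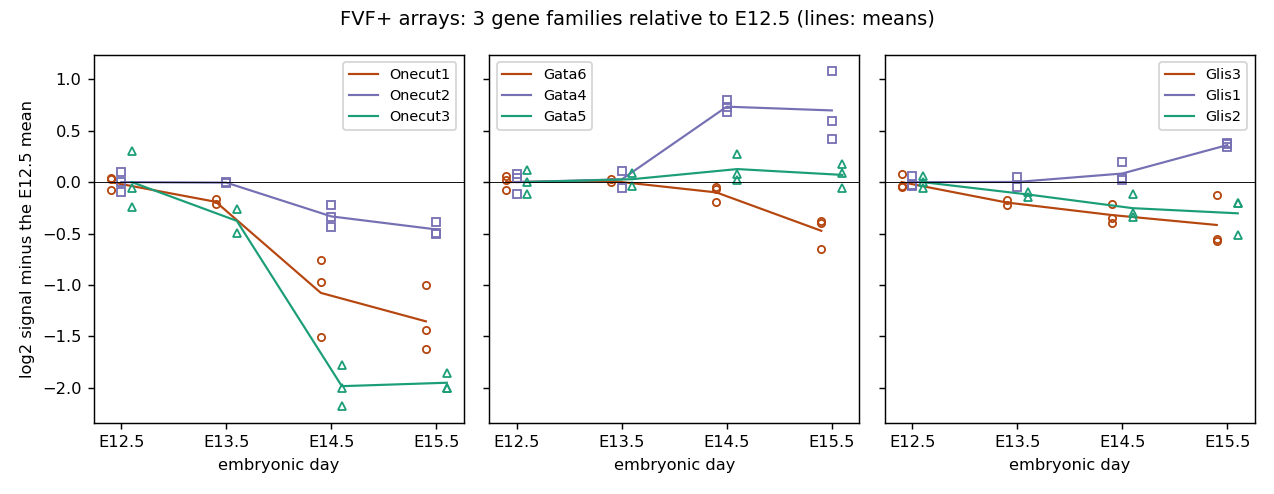
Log2 RMA signal of the Onecut, Gata and Glis genes on the FVF+ arrays minus the gene's E12.5 mean (vertical axis) by embryonic day (horizontal axis). Symbols are arrays and lines join means. Onecut3 lies 1.95 below its E12.5 mean at E15.5 and Gata4 0.70 above.

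Other factors of the progenitor network fell as well. Of 16 measured in a list of 18, 7 fell and 2 rose in FVF+, with a median of -0.35, beside 19.3% and 27.6% of all genes. The gene lists share members, so their counts are not separate observations. Gata4 and Onecut2 are also among the paralogues above, and Ptf1a, Nr5a2, Nkx2-2 and Hes1 recur in the lineage lists below. Neurog3 and Mafa are in both the endocrine list and the list of Pdx1 targets. Sall4 fell by 1.35 ± 0.14 (adjusted p = 1.3e-06), Hhex, a homeodomain factor of the ventral bud, by 1.27 ± 0.17 (adjusted p = 2.4e-05), and Mycn, a driver of proliferation, by 1.26 ± 0.10 (adjusted p = 3.6e-08). The tip factor Ptf1a rose by 0.87 ± 0.29 (adjusted p = 0.019), as did Gata4. Foxa2 changed by -0.11 (adjusted p = 0.64). Of the 16, 6 had a called interaction, each with the lower change in FVF+. Mycn was not one of them, and fell in FVF- too, by 1.03 ± 0.11 (adjusted p = 4e-06).

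Genes of the acinar, endocrine and duct lineages were followed over the same days. Of all genes, 27.6% were called higher and 19.3% lower in FVF+ at E15.5 than at E12.5. Of 8 tip and acinar genes 5 rose in FVF+ and 0 fell, with a median of 1.84, and Cpb1, a digestive carboxypeptidase, rose by 5.99 ± 0.32 (adjusted p = 9e-10). Of 11 endocrine factors 5 rose and 0 fell, among them Myt1 (1.69 ± 0.24, adjusted p = 3.1e-05) and Pax6 (1.25 ± 0.32, adjusted p = 0.0043), while Neurog3 changed by 0.53 ± 0.35 (adjusted p = 0.22). Of 10 trunk and duct genes 2 rose and 2 fell. Krt19 rose by 1.03 ± 0.24 (adjusted p = 0.0025) and the Notch target Hes1 fell by 0.82 ± 0.13 (adjusted p = 0.00013). In FVF-, where 10.7% of all genes were called higher, 5 of the tip and acinar genes and 5 of the trunk and duct genes rose, with Krt19 at 2.29 ± 0.27 (adjusted p = 1.6e-05). Krt19 had a median of 10.71 on the FVF- arrays, above its 10.07 on the FVF+ arrays. Which FVF- cells carried it was not tested, so its rise cannot be read as one of duct cells.

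Genes known as targets of Pdx1 or Hnf4a were set beside these factors. Of 8 Pdx1 targets, 5 rose and 2 fell in FVF+ while Pdx1 fell, beside 27.6% and 19.3% of all genes. Sst, the delta-cell hormone, rose by 4.84 ± 0.24 (adjusted p = 5.3e-10), Ins2 by 3.13 ± 0.23 (adjusted p = 2.8e-08) and Iapp by 3.04 ± 0.35 (adjusted p = 4.6e-06). The glucose transporter gene Slc2a2 fell by 1.70 ± 0.23 (adjusted p = 2.1e-05) and the receptor gene Fgfr2 by 0.81 ± 0.25 (adjusted p = 0.014). Of 8 Hnf4a targets, known mostly from liver, 1 was called higher in FVF+ at E15.5 (Apob, 0.25 ± 0.07, adjusted p = 0.0066) and 0 lower, and Apob was not called under quantile normalization (adjusted p = 0.52) or cyclic loess (0.48). Between the sorts, Rbp4 and Ttr were higher in FVF+ by 4.62 ± 0.13 (adjusted p = 2.7e-15) and 4.26 ± 0.23 (adjusted p = 1.2e-11), while Apob, Apoc3 and Fabp1 were not called, at -0.01 to 0.10.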

How the data were processed

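RMA and affy 1.44.0 are named in the submitters' processing notes, and the authors deposited log2 signals, 1 per probe set and array. RNA was purified with Qiagen RNeasy Mini columns and amplified with the Ambion WT Expression kit, per the labels' protocols. The definition and filtering of probe sets are not given in the sources used here. Of 23305 probe sets, 20728 had exactly 1 symbol, 1174 several and 1403 none. The probe set with the highest mean was used for each of 19296 genes.

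With limma 3.58.1 (R 4.3.3), 8 group means were fitted to the 21 arrays, leaving 13 residual degrees of freedom. Two-sided p-values had a Benjamini-Hochberg adjustment over the 19296 genes, separately for each of 14 comparisons, and genes were called under 0.05. Errors are SE for differences and SD for means. The steps were tested on simulated data.

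The 9 factors and the gene lists were chosen with earlier results of these data known. From the lists, up to 3 called genes per direction and 2 not called were named, with markers at any value. Per factor, the 3 genes of highest r were named, passing over predicted genes. The alternatives were other scalings, filters, weights and array sets, a 2-fold threshold and replicate blocks. Same-numbered arrays of the 2 sorts correlated at -0.37 to 0.49 in their deviations from the group means. With so few arrays per group, these values cannot decide whether the numbers pair samples. The main fit did not pair them.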

Additional observations from a re-analysis of the deposited data

Results flagged for a closer look

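For 5 factors, a test of the difference between the sorts found that E15.5 minus E12.5 was lower in FVF+ than in FVF-. The interactions were -1.31 for Pdx1, -1.05 for Sox9, -1.30 for Nkx6-1, -1.45 for Glis3 and -1.24 for Gata6 in log2 units. Gata6 and Glis3 fell in FVF+ and rose in FVF-. For Pdx1, Nkx6-1 and Sox9 only the fall in FVF+ was called with all arrays. In FVF- Pdx1 changed by 0.66 and Nkx6-1 by 0.57, and both rises were called without FVF- E14.5 replicate 3. The Pdx1 fall in FVF+ and the Sox9 interaction were each called in 5 of 21 fits that left out 1 array.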

How the results depend on the processing

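Of 4077 values of the 9 factors under alternatives, 3913 kept their side of the threshold, 69 became called and 95 were no longer called. The sign changed in 40, called neither in the main setting nor in the alternative, and in 0 that were called in either. The sort counts stayed at 9, 9, 9, 8 and 8 in all 21 fits without 1 array. Leaving out 1 array, the number called ranged from 4 to 7 for the change in FVF+ (main 7), 4 without FVF+ E12.5 replicate 1, FVF+ E12.5 replicate 3 or FVF+ E15.5 replicate 3. It ranged from 0 to 2 for the step to E14.5, 1 to 3 for the step to E15.5, 2 to 8 for any change in FVF+, 2 to 4 for both FVF- tests, 2 to 7 for the interaction to E15.5 and 0 to 2 for the interaction from E13.5 to E14.5. Any change in FVF+ was called for 5 without FVF- E14.5 replicate 2 and for 8 without replicate 3. The interaction was called for 2 without FVF- E12.5 replicate 1, FVF- E15.5 replicate 2 or FVF+ E15.5 replicate 3, and for 3 without FVF- E12.5 replicate 2 or FVF- E15.5 replicate 3. Cyclic loess gave 4 called for the change in FVF+, 0 for the step to E15.5 and 1 for the interaction from E13.5 to E14.5, and quantile normalization gave 0 for the step to E15.5. Array weights gave 1 for the step to E14.5, 6 for any change in FVF+ and 1 for the interaction from E13.5 to E14.5. A 2-fold threshold gave 3 for the change in FVF+, 0 for the step to E15.5 and 1 for the change in FVF-. FVF+ arrays alone gave 3, 5 and 8 for the steps to E14.5 and E15.5 and any change. Leaving out both FVF+ E12.5 replicate 1 and FVF- E14.5 replicate 3, chosen after seeing the data, gave 2, 3 and 7 for these and 4 for any change in FVF-. The causes were not tested, apart from the fewer arrays or the stricter threshold that some settings use by construction. With a replicate block, the adjusted p of the Pdx1 fall was 0.0526 and of the Sox9 interaction 0.0773, and with a block within day that of the Nkx6-1 interaction was 0.0539. Over all genes, the interaction was called higher for 2083 and lower for 1703, against 2749 and 1484 after median centring and 1373 and 2036 under cyclic loess. For the step to E15.5 the split was 2844 and 2087, against 1224 and 1497 under cyclic loess. The interaction was called for 3786 genes, against 6009 with array weights, 2392 with the within-day block and 1818 without FVF- E12.5 replicate 2, and the step to E13.5 for 1 gene, against 116 with array weights and 128 without FVF+ E12.5 replicate 1.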
